A study of Homo sapiens with 3 samples.

Results

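ST3GAL1 and NDRG1 are neighbouring genes on chromosome 8, both on the minus strand, and the stretch that holds them was described here in LNCaP, a line derived from a lymph node metastasis of human prostate carcinoma. The study deposited ChIP-seq of H3K27ac and of H3K4me1, with 1 library and 1 list of enriched regions per mark. An input library and 2 further lines named by the series' design, normal prostate epithelial cells and PC3, were not analysed here. All regions that overlapped chromosome 8 from 134.2 to 134.7 Mb of the build hg19 were taken, which gave 42 of 71077 H3K27ac regions and 84 of 200812 H3K4me1 regions, 126 of 271889 regions in all. The locus was chosen by its measured H3K27ac length and its H3K4me1 coverage in these same lists, so the high values of ST3GAL1 are a description and were not tested. With 1 library per mark there was no replicate spread and no p-value was computed. The lists hold no read counts, so the depth behind them is unknown, a missing region does not show that the mark was absent, and the copy number of LNCaP was not corrected for.

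ST3GAL1 encodes a sialyltransferase of the Golgi that adds sialic acid to the galactose of core 1 O-glycans on glycoproteins and so caps these chains. NDRG1 encodes a cytoplasmic protein that is induced by hypoxia and by differentiation and, in prostate cells, by androgen. H3K27ac, acetylation of lysine 27 of histone H3, is found at active promoters and enhancers. H3K4me1, monomethylation of lysine 4, is found at enhancers whether active or primed and beside the starts of active genes.

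The ST3GAL1 span was taken as 134.467 to 134.584 Mb (117 kb) and the NDRG1 span as 134.249 to 134.31 Mb (61 kb), limits that are given to 1 kb. As both genes run along the minus strand, ST3GAL1 lies upstream of NDRG1, and its end lies 157 kb from the NDRG1 start. In the order of RefSeq genes on GRCh38, an assembly used for names only, no protein-coding gene lies between them, but 2 lncRNA genes (LOC105375771 and LOC105375772) and 3 pseudogenes (RPL32P20, DPPA3P7 and ST13P6) do. CCN4, a secreted matrix protein gene, follows past the NDRG1 end, and the divergent lncRNA gene ST3GAL1-DT overlaps the start of ST3GAL1. Exons and introns were not used here, because the gene table is of another assembly.

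ST3GAL1 lay almost wholly inside both marks, whereas NDRG1 was mostly covered by H3K4me1 and only in part by H3K27ac. H3K27ac regions covered 112.1 kb (95.8%) of ST3GAL1, against 17.9 kb (29.3%) of NDRG1 and 33.5 kb (21.3%) of the stretch between them. Per length, H3K27ac coverage in ST3GAL1 was 3.27 times that of NDRG1. H3K4me1 regions covered 110.6 kb (94.5%) of ST3GAL1, 44.3 kb (72.6%) of NDRG1 and 64.7 kb (41.2%) of the stretch between, so that for this mark ST3GAL1 exceeded NDRG1 by 1.30 times. Over all chromosomes H3K27ac covered 4.65% and H3K4me1 9.45%, and over chromosome 8 the values were 4.56% and 9.40%. Both genes and the stretch between them were thus above the level of the rest of the genome for both marks, and the difference between the genes was larger for H3K27ac than for H3K4me1. No error can be given for these shares.

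**Figure D1:**
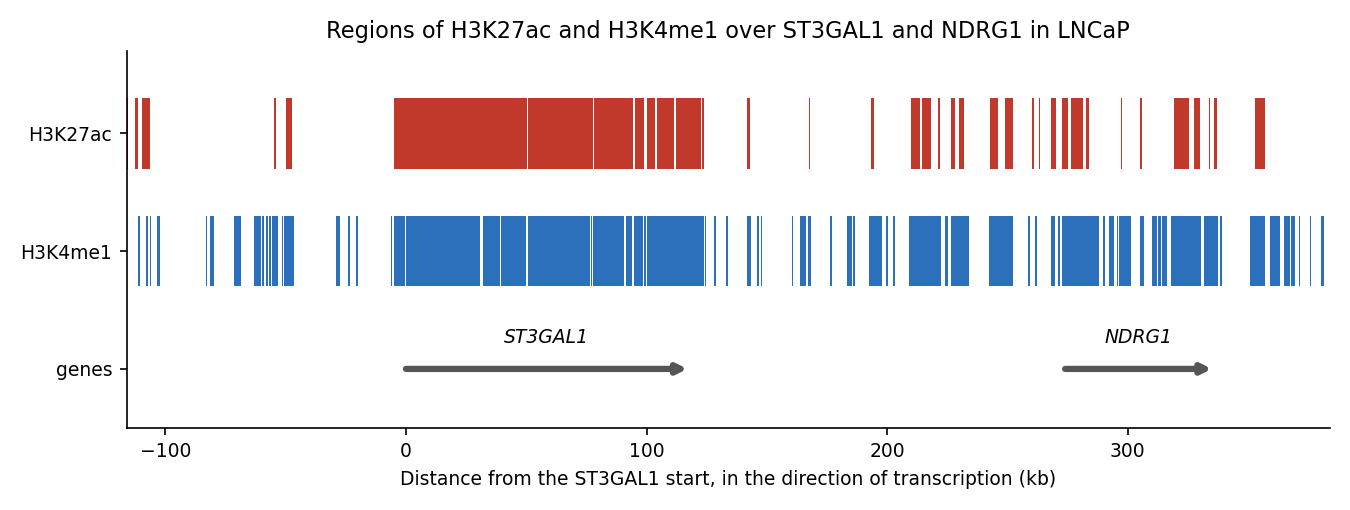
Regions of H3K27ac (upper row) and H3K4me1 (middle row) over the 500 kb, with the gene spans as arrows in the direction of transcription; the x axis is the distance from the ST3GAL1 start in kb. The H3K27ac block over ST3GAL1 is nearly continuous, with 95.8% of the gene covered, while the 9 H3K27ac regions of NDRG1 stand apart and cover 29.3%.

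The coverage of the marks left different combinations in the genes. In ST3GAL1, 91.4% of the span carried both marks, 4.40% H3K27ac alone, 3.12% H3K4me1 alone and 1.07% neither. In NDRG1, 29.2% carried both, 0.164% H3K27ac alone, 43.4% H3K4me1 alone and 27.2% neither. Nearly all acetylated length lay inside H3K4me1 in either gene, 95.4% in ST3GAL1 and 99.4% in NDRG1, against 71.5% over all chromosomes. Conversely, 96.7% of the H3K4me1 length of ST3GAL1 carried H3K27ac, against 40.2% in NDRG1, 48.4% between the genes and 35.1% over all chromosomes. In ST3GAL1 both shares largely restate the coverage, since H3K27ac covered 95.8% and H3K4me1 94.5% of the whole span. In NDRG1 they were above the coverage of the span, 29.3% for H3K27ac and 72.6% for H3K4me1.

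**Figure D2:**
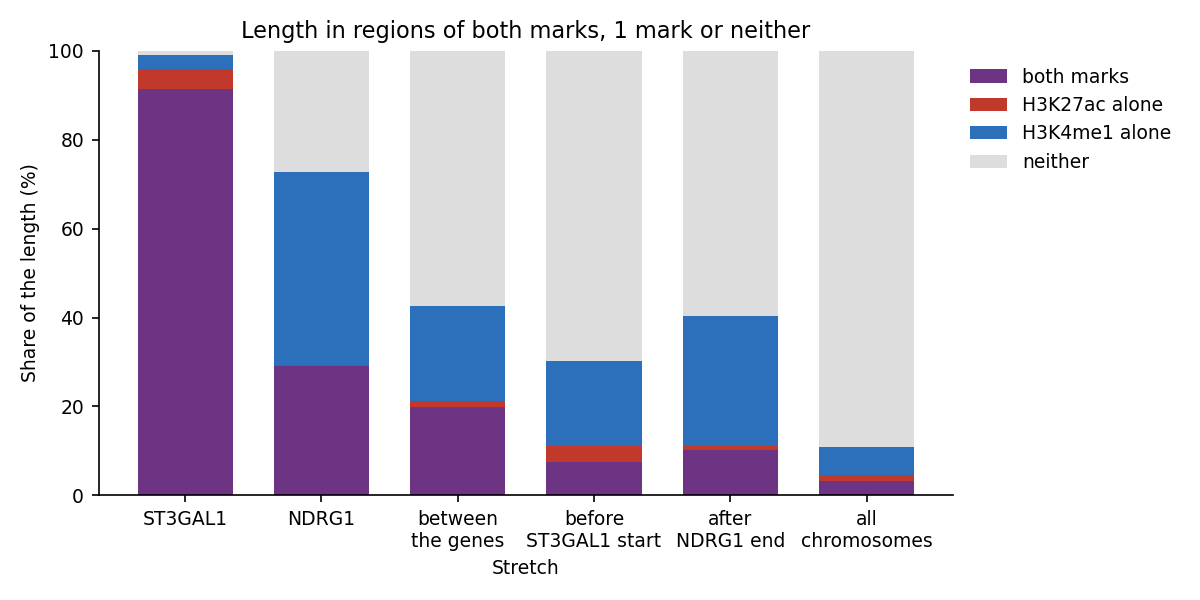
Share of each stretch (%) in regions of both marks, H3K27ac alone, H3K4me1 alone or neither, as stacked bars. Both marks cover 91.4% of ST3GAL1 and 29.2% of NDRG1, and H3K4me1 alone covers 3.12% of ST3GAL1 and 43.4% of NDRG1.

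Counted by regions in place of length, the overlap in the 500 kb as a whole was close to that of the lists, but its parts differed. Of the 42 H3K27ac regions, 39 overlapped H3K4me1 by at least 1 bp (92.9%, exact 95% interval 80.5% to 98.5%), against 83.1% of all H3K27ac regions. Of the 84 H3K4me1 regions, 35 overlapped H3K27ac (41.7%, 31% to 52.9%), against 34.5% of all H3K4me1 regions. The intervals treat regions as independent and cover counting error only, and both hold the value of the whole list. Within ST3GAL1 12 of 12 H3K27ac and 14 of 15 H3K4me1 regions (93.3%) met the other mark, and within NDRG1 9 of 9 and 6 of 14 (42.9%) did. For H3K4me1 regions the share was 34.6% between the genes, 30% upstream of the ST3GAL1 start and 25% past the NDRG1 end. At 1 bp of overlap the counts of ST3GAL1 were largely set by its coverage, 95.8% for H3K27ac and 94.5% for H3K4me1.

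ST3GAL1 carried some very wide regions. It held 10.3 H3K27ac regions per 100 kb, against 14.8 in NDRG1, 10.2 between the genes and 2.30 over all chromosomes. Its 12 H3K27ac regions had a median width of 4025 bp, against 1950 bp for the 9 of NDRG1 and 1600 bp for the whole list. All 5 H3K27ac regions of 10 kb or more in the 500 kb touched ST3GAL1, of 26 such regions on chromosome 8. The widest, chr8:134548701-134588900, measured 40.2 kb and held the start of the gene, and 15 of the 71077 H3K27ac regions, itself included, were as wide. Downstream of it followed chr8:134533551-134548550 (15.0 kb), chr8:134506101-134533200 (27.1 kb), chr8:134489701-134505650 (15.95 kb) and, across the end of the gene, chr8:134461251-134471850 (10.6 kb). Between the last 2 of these, near its end, the gene was broken into 7 regions of 0.6 to 4.1 kb, which is where acetylation was least complete.

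The H3K4me1 regions of ST3GAL1 followed the same outline, with breaks that lay mostly, but not all, at other places. The widest, chr8:134555901-134582800, measured 26.9 kb and lay wholly inside the 40.2 kb H3K27ac region, and it was the widest of the 9700 H3K4me1 regions of chromosome 8. The next, chr8:134507351-134533250, measured 25.9 kb and carried H3K27ac over 99.8% of its length, and chr8:134460151-134480450 measured 20.3 kb and ran past the end of the gene. The 15 H3K4me1 regions of ST3GAL1 had a median width of 3650 bp, against 1500 bp for the 14 of NDRG1 and 1050 bp for the list.

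The breaks within ST3GAL1 were short, and most lay wholly inside the other mark, which covered nearly all of the gene. H3K27ac was interrupted 11 times inside the gene, by 50 to 1050 bp each and 4.9 kb in all, and 7 of these gaps lay wholly and 4 partly inside H3K4me1. H3K4me1 was interrupted 15 times, by 50 to 1000 bp and 6.4 kb in all, and H3K27ac covered 11 of these gaps wholly, 3 partly and 1 not at all. By length, H3K4me1 covered 3.65 kb of the 4.9 kb of H3K27ac gaps, and H3K27ac 5.15 kb of the 6.4 kb of H3K4me1 gaps. Both are lower shares than over the whole gene, where H3K4me1 covered 94.5% and H3K27ac 95.8%. The longest breaks were chr8:134483951-134485000 for H3K27ac and chr8:134533251-134534250 for H3K4me1. In NDRG1 the longest H3K27ac gap, chr8:134264551-134278100, spanned 13.55 kb and the longest H3K4me1 gap, chr8:134278901-134282600, 3.7 kb. No H3K27ac region lay in 11 of the 13 H3K4me1 gaps of NDRG1.

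Along ST3GAL1, H3K27ac was complete from the start and thinned towards the end. In 10 equal parts of 11.7 kb from start to end of transcription, H3K27ac covered 100% of the first 3, between 96.2% and 100% of the next 5, 76.1% of the ninth and 90.2% of the last. H3K4me1 covered 98.3% of the first part and between 85.9% and 100% of the others, with its lowest value in the ninth as well. Along NDRG1, in 10 parts of 6.1 kb, H3K27ac was higher towards both ends of the gene than in its middle. It covered 76.2% and 45.9% of the first 2 parts and between 0% and 13.9% of the next 5. In the last 3 it covered 54.9%, 65.6% and 25.4%. H3K4me1 in NDRG1 was complete in the first, the second and the ninth part and covered 33.6% in the sixth, its lowest. The middle of NDRG1 thus held H3K4me1 with little H3K27ac, an arrangement that none of the 10 parts of ST3GAL1 showed.

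**Figure D3:**
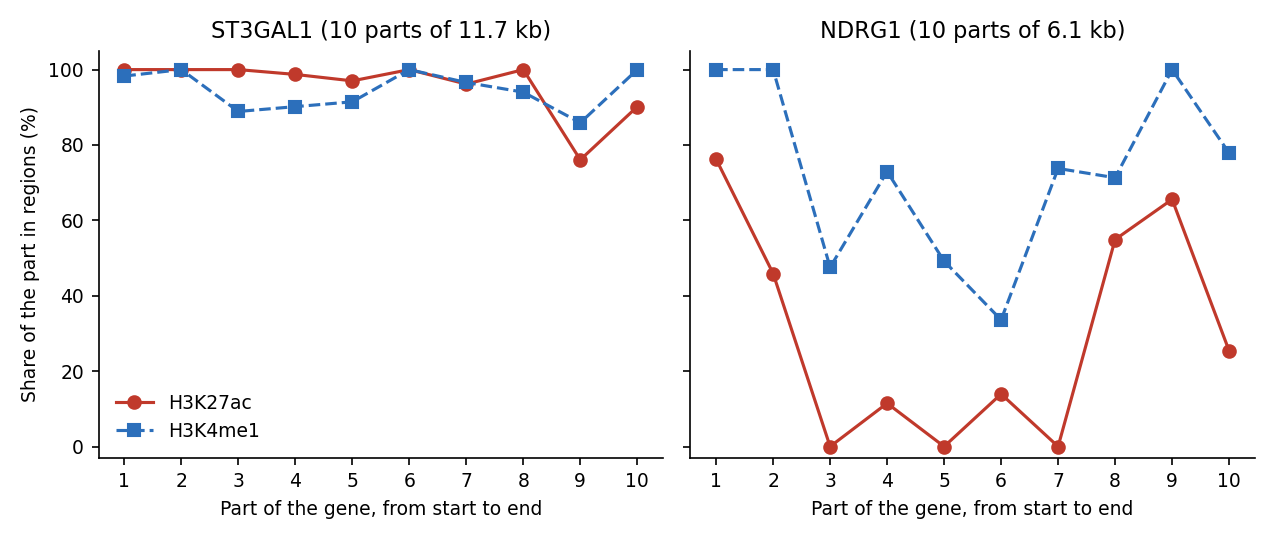
Share (%) of each of 10 equal parts of ST3GAL1 (left) and NDRG1 (right) in H3K27ac regions (circles) and H3K4me1 regions (squares), from start to end of transcription. H3K27ac stays at 76.1% or more throughout ST3GAL1 and falls to 0% in 3 parts of NDRG1.

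The starts of the genes, known here to 1 kb, differed in their flanks. At ST3GAL1 the H3K27ac region that held the start reached 4.9 kb upstream of it and 35.3 kb into the gene. H3K4me1 broke at that place, with a gap of 500 bp at chr8:134583851-134584350 inside the acetylated region, between a region of 1.0 kb on the side of the gene and one of 4.6 kb upstream. At NDRG1 the H3K27ac region that held the start, chr8:134308601-134311500, measured 2.9 kb and reached 1.5 kb upstream and 1.4 kb into the gene. The H3K4me1 region there, chr8:134295901-134311450, measured 15.55 kb, ran through the start without a break and covered the first 14.1 kb of the gene. Over the 5 kb upstream of the start, H3K27ac covered 98.0% at ST3GAL1 and 53.0% at NDRG1, and H3K4me1 92.0% and 62.0%. Over the first 5 kb inside, H3K27ac covered 100% and 75%, and H3K4me1 96.0% and 100%. Because the limits are rounded, whether the H3K4me1 break falls on the transcription start itself was not tested.

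**Figure D4:**
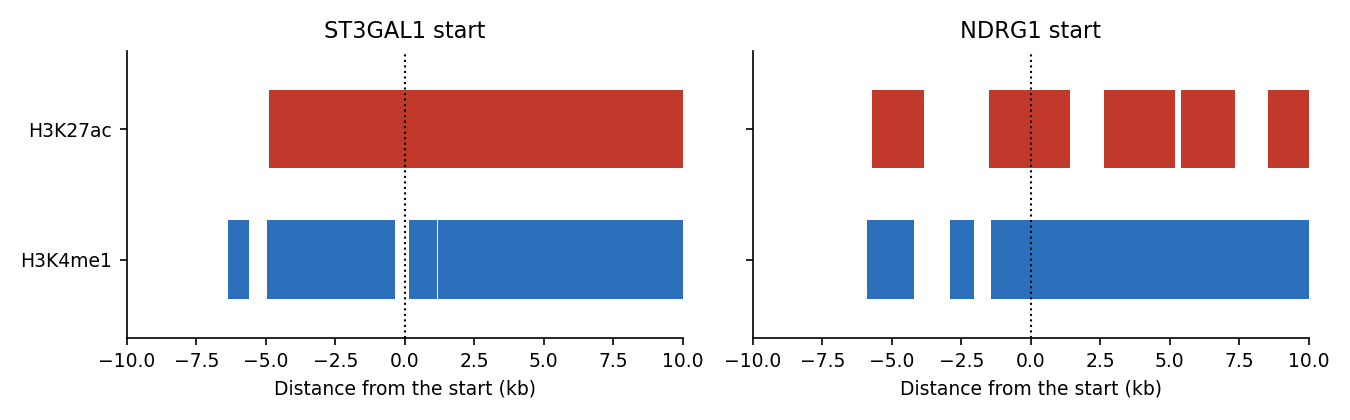
H3K27ac and H3K4me1 regions within 10 kb of the starts of ST3GAL1 (left) and NDRG1 (right), with the start as a dotted line and the direction of transcription to the right. At ST3GAL1, H3K4me1 has a gap of 500 bp at the start under a continuous H3K27ac region; at NDRG1, H3K4me1 runs through the start and H3K27ac there is 2.9 kb wide.

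NDRG1 held acetylation in separate pieces, none of them as wide as 10 kb. Its widest H3K27ac region was chr8:134258401-134264550, with 6.15 kb towards the end of the gene, a score of 0.001 and H3K4me1 over 99.2% of its length. Of all H3K27ac regions, 2.38% were as wide or wider. The region at the start and the 3 that follow it, of 2.55, 1.95 and 1.55 kb, lay no farther than 10.1 kb into the gene, nearly wholly inside the same 15.55 kb H3K4me1 region. In between, chr8:134278101-134278950 (0.85 kb) and chr8:134286151-134286850 (0.7 kb) were the 2 H3K27ac regions of the middle of the gene, with scores of 0.02 and 0.024, above the list median of 0.009. The score is the authors' own value per region, unnamed in the files, and is low in most wide regions. Of the 14 H3K4me1 regions of NDRG1, 6 overlapped H3K27ac (42.9%, exact 95% interval 17.7% to 71.1%), which holds the 34.5% of the list. The 8 without H3K27ac measured 0.55 to 1.9 kb, against a list median of 1050 bp.

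The stretch between the genes held an acetylated part next to NDRG1, a poor part in the middle and, in its last 6.85 kb, the end of the block over ST3GAL1. After joining of H3K27ac regions separated by no more than 12.5 kb, 1 cluster ran from the first part of NDRG1 far upstream of it, chr8:134299901-134373900, with 14 regions, 31.4 kb of H3K27ac in a span of 74 kb, and rank 232 of 37027 clusters by covered length. In the 63.9 kb of this cluster upstream of the NDRG1 start, H3K27ac covered 37.4% and H3K4me1 57.3%. The limits of this part were set by H3K27ac itself, so its coverage cannot be compared with that of the gene; over the whole stretch between the genes H3K27ac coverage was 21.3%, below the 29.3% of NDRG1. Its widest H3K27ac regions upstream of the gene were chr8:134365751-134369550 (3.8 kb) and chr8:134370351-134373900 (3.55 kb), both within the 13.25 kb H3K4me1 region chr8:134361651-134374900. This joining was loose. With a joining distance of 5 kb the cluster at the NDRG1 start held 12.55 kb and ranked 910, and with scores up to the list median it held 8.25 kb and ranked 2854.

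From the end of that cluster to the cluster of ST3GAL1, 86.3 kb, H3K27ac covered 3.71% and H3K4me1 24.6%, and 75.4% carried neither mark. The 3 H3K27ac regions there measured 0.75 to 1.4 kb and lay wholly inside H3K4me1. The longest H3K27ac gap between the genes, chr8:134390551-134415850, spanned 25.3 kb, and the longest H3K4me1 gap, chr8:134423601-134435850, 12.25 kb. Of the 16 H3K4me1 regions that lay wholly in this part, 3 met H3K27ac, against 34.5% of the list, and 7 had a score above 0.05, against 24.1% of the list. Because this part was defined as what the joined H3K27ac clusters leave out, its low H3K27ac coverage and the length of the gaps at its edges follow from the joining rule. So does, at least in part, the low count of H3K4me1 regions that met H3K27ac. H3K4me1, which the rule did not use, was above the 9.45% of all chromosomes. Around and between its 3 H3K27ac regions, the gaps in acetylation measured 15.6 to 25.3 kb.

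The marks were sparser, though not evenly so, in the rest of the 500 kb. Upstream of the ST3GAL1 start, over 116 kb, H3K27ac covered 11.03% and H3K4me1 26.6%, and past the NDRG1 end, over 49 kb, the values were 11.02% and 39.4%. In bins of 20 kb upstream of ST3GAL1, H3K4me1 covered 17.3% around 26 kb from the start, 39% around 46 kb and 42.5% around 66 kb, and H3K27ac, at 0% in 3 bins, covered 23.8% around 106 kb. The ST3GAL1 block reached 4.9 kb upstream of the start of the gene and 6.85 kb past the end of the gene, so that 90.9% of the block's span lay within the gene. At the limits of the 500 kb the last H3K27ac region inside was chr8:134699501-134700750 (1.25 kb), and the next outside, chr8:134719651-134721250 (1.6 kb), lay 19.65 kb beyond. On the other side, the last inside was chr8:134226751-134231100 (4.35 kb) and the next outside, chr8:134155351-134157250 (1.9 kb), lay 42.75 kb beyond. For H3K4me1 the next regions outside lay 1.35 and 2.05 kb beyond the limits.

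Windows of the length of each gene, tiled over all chromosomes, show how far these values lie from the rest of the genome. Of 22434 windows of 117 kb that held a region, 3 (0.0134%) had as much H3K27ac as ST3GAL1 or more, and 0 (0%) had as much H3K4me1, with 94.5% in ST3GAL1 and 91.2% in the highest window. The 3 windows lay on chromosomes 4 and 21, and H3K4me1 covered 94.5% of ST3GAL1, against 34.8% to 36.2% of these windows. In the 10 windows with at least 75% of H3K27ac, H3K4me1 covered 21.6% to 77.9%, with a median of 41.8%. Tiled windows are not aligned to blocks as a chosen gene is, so windows at every 1 kb step that did not touch the gene were added after seeing the data. Those with as much H3K27ac as ST3GAL1 lay at 2 places, on chromosomes 4 and 21, and the highest H3K4me1 value was 92.7%, with H3K27ac at 68.1% in that window.

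NDRG1 was less far from the rest. Of 39345 windows of 61 kb, 897 (2.28%) had as much H3K27ac or more and 84 (0.213%) as much H3K4me1, and these became 4.48% and 0.442% with scores up to the list median. In the 110 windows whose H3K4me1 lay within 5 percentage points of NDRG1, H3K27ac ranged from 8.77% to 99.1% with a median of 38.8%, and 25 of them had as little as NDRG1 or less. The 29.3% of NDRG1 thus lay below the median of stretches so rich in H3K4me1, within their range. The 500 kb as a whole had 36.3% of H3K27ac and 54.0% of H3K4me1, and among 5692 tiled windows of that length 6 had as much H3K27ac, 4 as much H3K4me1 and 0 both.

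The joined cluster over ST3GAL1, chr8:134460151-134588900, held 123 kb of H3K27ac in 13 regions and ranked 10 by covered length, or 3 with a joining distance of 5 kb and 6 with scores up to the list median. It differed from the other 16 clusters of 100 kb or more in being the most filled by both marks. H3K27ac covered 95.8% of its span, against 48.9% to 89.7% (median 64.0%) in the others, and H3K4me1 covered 94.8%, against 18.0% to 86.3% (median 51.9%). It also had the fewest regions, 13 against 17 to 65 (median 38.5). By the share of H3K27ac length inside H3K4me1, 95.5%, it ranked 3 of 17, behind chr8:128793251-128994650 on the same chromosome (96.2%) and chr16:89365701-89576650 (96.0%). Among the 697 clusters of 20 kb or more, 1 other was at or above it in both the filling by H3K27ac and the share inside H3K4me1, against 149 for the cluster at the NDRG1 start. Taken singly, the filling of the ST3GAL1 cluster ranked 5 of the 697 and its share inside H3K4me1 ranked 133. A cluster of 90.7 kb, below the limit of 100 kb, was similar, with 96.8% of its span in H3K27ac and 93.3% of that length inside H3K4me1. The 4 widest H3K27ac regions made up 79.7% of the acetylated length of the ST3GAL1 cluster.

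**Figure D5:**
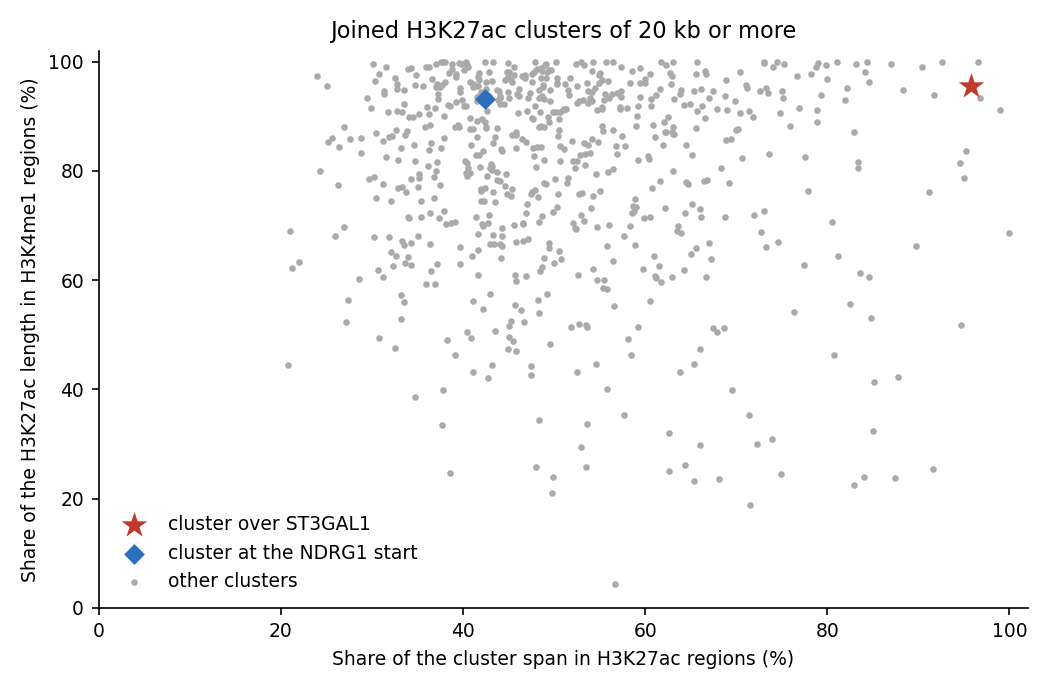
Each point is 1 of 697 joined H3K27ac clusters with at least 20 kb of H3K27ac; the x axis is the share of the span in H3K27ac regions (%) and the y axis the share of the H3K27ac length in H3K4me1 regions (%). The star, the ST3GAL1 cluster, is at 95.8% and 95.5%, and the diamond, the cluster at the NDRG1 start, at 42.4% and 93.1%.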

How the data were processed

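ChIP-seq regions of H3K27ac and H3K4me1 in LNCaP were used, 1 list per mark. Per the submitters' processing notes, Bowtie 0.12.8 and the build hg19 were used. How regions were called, at which threshold and whether against the input is not given in the sources used here. These choices set the number and width of regions. Each deposited list gives chromosome, start, end and a score for every region. The score has no name in the files, takes 12 values for H3K27ac and 13 for H3K4me1, and served only to filter or describe regions within a list, low scores being taken as more stringent. Starts were read as 0-based and are printed counted from 1. All limits fall on a grid of 50 bp and regions of a list do not overlap. The mitochondrial region of each list was left out.

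Gene spans and the 500 kb were given beforehand in hg19, to 1 kb. Members, lists and comparisons were chosen with earlier results of these data known. Regions were named by a fixed rule: the 5 widest per mark, those at or nearest to each start, the longest gap per mark in each gene and between them, and the joined clusters. Other regions of the genes, the breaks at the starts, the parts of the stretch between the genes, the windows of similar coverage, the cluster sizes of 20 and 100 kb and the wide regions by score were chosen after values were seen. Lists of other sialyltransferases, O-glycan enzymes and NDRG genes got no value, as the gene table is of GRCh38. Covered lengths were summed in bp, and windows were tiled from the first base and kept if they held a region. Interval functions were tested on simulated data. Scripts ran in Python 3.11.15 (pandas 2.3.3, numpy 2.4.6, scipy 1.17.1), with figures drawn in matplotlib 3.10.9.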

Additional observations from a re-analysis of the deposited data

How the results depend on the processing

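The alternatives were scores up to the list median (0.009 for H3K27ac and 0.008 for H3K4me1), H3K4me1 scores under 0.05, merging within 1 kb, gene limits moved outward by 5 kb, overlaps counted from 50% of a region's width, a joining distance of 5 kb and other window placements, of which the 1 kb step was added after seeing the data. Of 86 alternative values, 64 stayed within a set range and 22 did not. For a share the range was its exact 95% interval, which for lengths takes steps of 50 bp as independent and is too narrow. For a count, coverage or rank it was 1.5 times either way. Some of the 64 could not move. A limit on H3K4me1 scores leaves the H3K27ac coverage as it was. In ST3GAL1, 1.5 times the coverage exceeds 100% for both marks, so merging could not take it out of range. All coverage shares of both genes and of the stretch between stayed within 1.5 times. The filter on scores kept those equal to the median. The 15.95 and 15.0 kb H3K27ac regions of ST3GAL1 have just that score, 0.009, and a stricter limit was not tested. With scores up to the median, the H3K27ac length inside H3K4me1 was 92.8% in ST3GAL1, 97.0% in NDRG1 and 98.5% between them, the H3K4me1 length inside H3K27ac 91.9% in ST3GAL1 and 33.6% in NDRG1, and the 500 kb held 22 H3K27ac and 46 H3K4me1 regions. The ST3GAL1 cluster then ranked 6, and the cluster at the NDRG1 start held 8.25 kb and ranked 2854. Windows with as much as NDRG1 were 4.48% for H3K27ac and 0.442% for H3K4me1. With H3K4me1 scores under 0.05, 52.6% of the H3K4me1 length between the genes carried H3K27ac, and 0.297% of windows had as much H3K4me1 as NDRG1. With wider gene limits, 97.7% of the H3K27ac length of NDRG1 lay inside H3K4me1, and 42.5% of the H3K4me1 length between the genes carried H3K27ac. Merging gave 100% and 99.1% for the 2 shares of ST3GAL1 and 46 H3K4me1 regions, as it fills short gaps. Joining at 5 kb gave rank 3 for ST3GAL1 and 12.55 kb and rank 910 for NDRG1, as it splits loose clusters. Other causes were not tested. No paired analysis was possible because the labels give a single library for H3K27ac and for H3K4me1. Without the depth, stretches that hold no region cannot be told apart from poorly sampled ones.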

Other observations

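The wide H3K27ac regions of ST3GAL1 had unusual scores for their width. Of the 444 H3K27ac regions of 10 kb or more in the list, 430 had a score of 0.001 or 0.002, the 2 lowest values of the list, and 14 (3.15%) had 0.007 or 0.009. Of those 14, 4 were regions of ST3GAL1, of 10.6, 15.95, 27.1 and 15.0 kb, and 3 lay in the longest cluster of the list on chromosome 21. The fifth wide region of ST3GAL1, the 40.2 kb region at its start, had the score 0.001. The 8 H3K4me1 regions of 10 kb or more in the 500 kb had the score 0.003, as did 657 of 661 such regions of that list. The pattern was noticed after the values were seen, what the score measures is not given in the sources used here, and its cause was not tested.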
